A study of Mus musculus with 6 samples.

Results

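The 10 genes described here encode the killing proteins of cytotoxic granules, namely 9 granzymes (Gzma, Gzmb, Gzmc, Gzmd, Gzme, Gzmf, Gzmg, Gzmk and Gzmm) and perforin (Prf1). They were chosen by symbol, and all 10 were among the 49671 genes of the count table. RNA was measured in 3 libraries of CD73 KO and 3 libraries of WT mouse CD8 T cells. All 6 libraries came from spleen cells of OT-I mice, whose transgenic T cell receptor recognises the ovalbumin peptide SIINFEKL. Both genotypes received 10 ng/mL of the peptide daily for 5 days, with the cytokines IL-7 and IL-15 (5 ng/mL each), a culture intended to exhaust the cells, and cells were washed and replated in fresh medium at 48 hours. Live cells were sorted for RNA. No culture without repeated peptide was analysed here, so the levels describe CD73 KO and WT cells under this one treatment. The Nt5e gene encodes CD73, an ectoenzyme that makes adenosine from AMP. The labels describe the loss of CD73 only as a genotype, and whether its libraries stem from different mice or cultures is not stated. The p-values therefore measure the spread between these libraries, which may be technical.

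Perforin opens pores in the membrane of a target cell, and granzymes are serine proteases that enter through them. Granzyme B cuts after aspartate and sets off apoptosis, whereas granzyme A and granzyme K cut after basic residues and granzyme M after methionine or leucine. Granzymes C to G are rodent relatives of granzyme B that mouse T cells can switch on late after strong or repeated stimulation with cytokines. Granzyme and perforin RNA is scarce in naive CD8 T cells and accumulates after activation.

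Among the genes of the chromosome 14 cluster, Gzmc, Gzmf, Gzmg, Gzmd and Gzme share a promoter stretch, shown here because these close copies differed widely in level although their promoters were alike. The sequences are RefSeq promoter windows of build GRCm38.p6, minus strand, written in the direction of transcription. Capitals mark the 8 bases aligned with the palindromic cAMP response element TGACGTCA, the site of CREB and ATF factors.
Gzmc, chr14:56234670-56234749: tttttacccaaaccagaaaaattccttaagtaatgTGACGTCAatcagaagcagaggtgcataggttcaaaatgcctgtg
Gzmf, chr14:56211445-56211524: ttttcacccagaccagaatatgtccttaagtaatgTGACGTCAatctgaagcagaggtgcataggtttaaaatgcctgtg
Gzmg, chr14:56159612-56159691: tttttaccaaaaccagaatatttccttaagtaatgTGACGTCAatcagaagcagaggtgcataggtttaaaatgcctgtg
Gzmd, chr14:56132610-56132689: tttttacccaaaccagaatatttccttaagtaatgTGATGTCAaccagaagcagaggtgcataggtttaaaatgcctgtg
Gzme, chr14:56120643-56120722: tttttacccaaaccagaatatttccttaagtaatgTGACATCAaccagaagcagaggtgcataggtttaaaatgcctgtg

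The element was intact in Gzmc, Gzmf and Gzmg. Counting from its 5′ end, Gzmd carried the substitution C4T and Gzme the substitution G5A. It began 57 to 82 bases before the RefSeq start of each gene. Over the 250 bases before the start, the 10 pairs among these 5 genes were 84.4% to 95.6% identical. An exact TGACGTCA, on either strand, was found in 1.79% of all 32851 promoter windows of 300 bases. The RUNX motif TGTGGTT or its complement AACCACA was found in 5.27% of all windows and in those of 7 of the 10 genes, namely Gzma, Gzmb, Gzmc, Gzmd, Gzme, Gzmf and Gzmg. In Gzmc, Gzmd, Gzme, Gzmf and Gzmg it was AACCACA, 175 to 196 bases before the RefSeq start. Since these 5 promoters are close copies, their matches are not independent. RUNX3 is a factor needed for the cytotoxic programme of CD8 T cells.

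Granzyme B, the most abundant member, had a different promoter window, set by a RefSeq start that lies upstream of the GENCODE M21 start (56262260). It is shown for its neighbouring AP-1 and RUNX matches in capitals, which began 58 and 34 bases before the RefSeq start. AP-1 factors are induced by T cell receptor signals. The perforin window is shown for an ETS match in capitals 109 bases before the start. Another ETS match of Prf1, ACTTCCT, began 198 bases before the start, outside the stretch shown.
Gzmb, chr14:56262335-56262414, minus strand: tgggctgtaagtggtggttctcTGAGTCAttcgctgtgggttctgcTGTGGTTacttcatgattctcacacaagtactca
Prf1, chr10:61297726-61297805, plus strand: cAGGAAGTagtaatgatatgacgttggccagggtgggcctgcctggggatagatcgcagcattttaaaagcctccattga

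The AP-1 motif TGANTCA was held by 7.81% of all windows and, among the members, by Gzmb. The ETS motif AGGAAGT or ACTTCCT was held by 9.35% of all windows and by those of Prf1, Gzmc, Gzmd, Gzme, Gzmf and Gzmg. In the granzymes among these it lay 200 to 221 bases before the RefSeq start, again in close copies that are not independent. The T-box motif AGGTGTNA or TNACACCT, held by 3.03% of all windows, was not in these windows of the 10 genes. The matches did not overlap each other. They describe letters in a window and do not show that a factor bound there.

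Libraries held 6934150 to 19382950 counts, so that 3 counts, the detection floor used here, equal 0.160 to 0.427 CPM (counts scaled to a common library total with TMM factors). The 2 shallowest libraries were WT replicates 2 and 3. All 8 CD8 T cell markers were detected in every library. Their summed level was 4096 to 4406 CPM in CD73 KO, against 3737 to 3876 CPM in WT. Nt5e, the targeted gene, was counted 69, 128 and 88 times in the CD73 KO libraries, against 290, 49 and 263 times in WT. The library labelled WT replicate 2 thus lay within the CD73 KO range by CPM (5.22 against 3.67 to 8.47 CPM), and log2 fold changes without that library are given beside those of all 6 libraries.

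Between genotypes, 0 of the 8 members that passed the filter on low counts changed by edgeR's quasi-likelihood test at an adjusted p of 0.05, where 0.0572% of all 12242 tested genes did, 0.0163% on the lower side. Limma-voom called 0 as well, with 0.049% of all genes called. At an unadjusted p under 0.05 there was 1 member, Gzmb, against 9.64% of all tested genes, 3.89% on the lower side. All 8 log2 fold changes (CD73 KO over WT) were below 0, as were those of 47.7% of all tested genes. They ran from -2.88 to -0.11 with a median of -0.94, beside a median of 0.01 over all tested genes. Leaving out WT replicate 2 turned Gzme to 0.28 and Gzmm to 0.04. Gzmm was also above 0 without CD73 KO replicate 2 (0.21) or WT replicate 3 (0.11). The 8 values are not independent, since every tested member but Gzmm had its highest level in the library labelled WT replicate 2. Gzmb was also the member without overlap between the genotypes, a pattern shown by 15.2% of all tested genes and, on the lower side, by 7.6%. In bulk RNA, fewer cells that carry a transcript and less transcript per cell cannot be told apart.

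**Figure D1:**
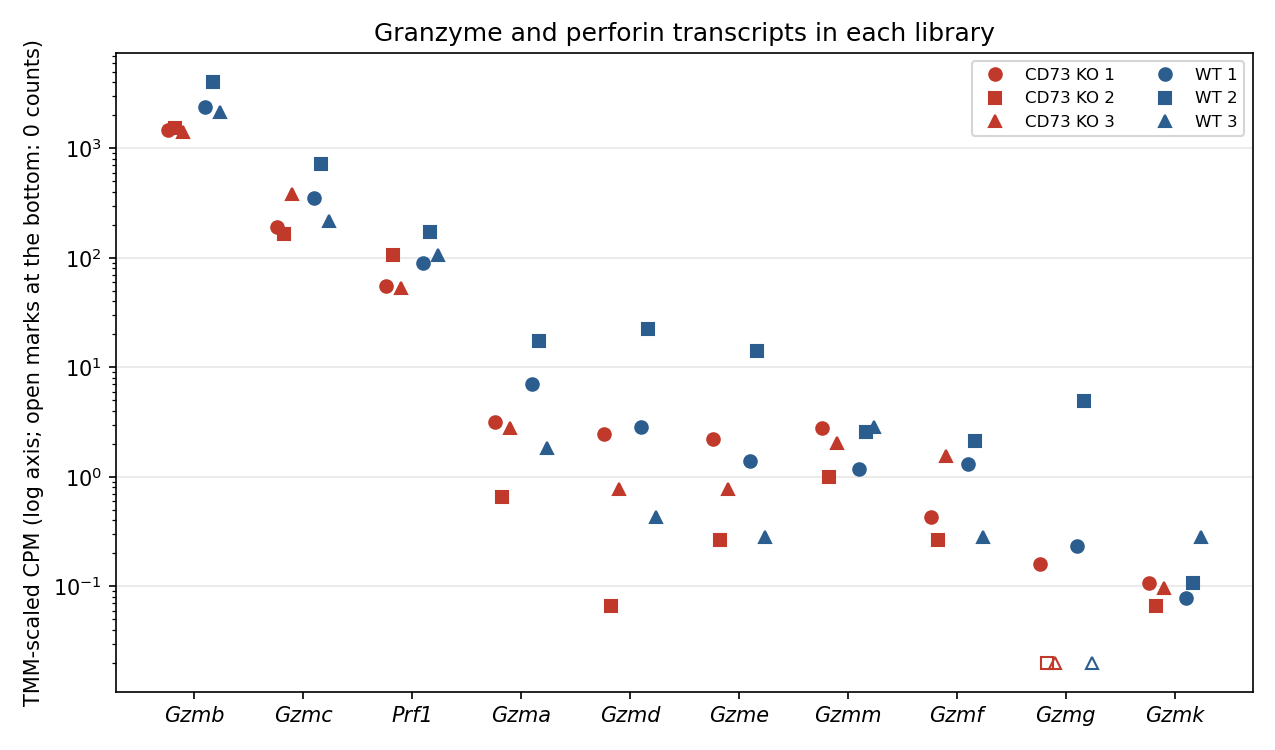
TMM-scaled CPM of the 10 members in each library on a log axis, with CD73 KO libraries on the left and WT libraries on the right of each gene, and open marks for 0 counts. Gzmb lies at 1410 CPM or more throughout, Gzmk at 1 or 2 counts, and WT replicate 2 is highest for 8 of the 10 genes.

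Gzmb (ENSMUSG00000015437, chromosome 14, 56258838 to 56262260, minus strand, GRCm38, GENCODE M21) was counted 27873, 23442 and 14647 times in CD73 KO, against 30664, 37802 and 15173 times in WT. Those are 1483, 1548 and 1410 CPM in CD73 KO, against 2385, 4026 and 2160 CPM in WT. The 3 CD73 KO libraries were close together and below every WT library, while WT replicate 2 stood far above the other WT libraries. Mean levels were 1480 ± 68.9 CPM for CD73 KO and 2857 ± 1019 CPM for WT (SD, n = 3 each). The log2 fold change was -0.95 ± 0.22 (SE), and it missed the threshold in edgeR's quasi-likelihood test (unadjusted p = 0.00197, adjusted p = 0.287). An exact permutation test of 3 against 3 libraries cannot give a two-sided p below 0.1.

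The call on Gzmb depended on the fit, and both fits that called it ran without the filter on low counts. Whether DESeq2 would call it with that filter was not tested. DESeq2 called it with a log2 fold change of -0.96 ± 0.20 (SE) and an adjusted p of 0.000759, where 0.786% of the genes it tested were called. Without a filter on low counts edgeR called it too (log2 fold change -0.95, adjusted p = 1.39e-10), where 1.4% of genes were called. The other 13 alternatives, limma-voom among them, did not, and over all 15 the adjusted p ran from 1.39e-10 to 0.466. Without WT replicate 2 the log2 fold change was -0.62 ± 0.12 (SE, edgeR adjusted p = 0.337), the smallest of the 6 fits that left out a library. Without WT replicate 3 it was -1.12 (edgeR adjusted p = 0.103), the largest.

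Relative to all genes, Gzmb was a leading transcript. Ranked by CPM per kilobase of exon among 49326 genes, it stood at place 30, 20 and 30 in the CD73 KO libraries and at place 16, 3 and 15 in the WT libraries. It took 0.144%, 0.158% and 0.144% of all counts in CD73 KO and 0.235%, 0.397% and 0.219% in WT.

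Prf1 (ENSMUSG00000037202, chromosome 10, 61297833 to 61304680, plus strand), the pore former that granzymes depend on for entry, had 1048, 1616 and 552 counts in CD73 KO and 1155, 1616 and 746 in WT. In CPM these are 55.8, 107 and 53.1 in CD73 KO and 89.8, 172 and 106 in WT. The genotypes overlapped, because CD73 KO replicate 2 reached the level of WT replicate 3 and passed WT replicate 1. Mean levels were 71.9 ± 30.2 CPM for CD73 KO and 123 ± 43.6 CPM for WT (SD, n = 3 each). Prf1, with a log2 fold change of -0.77 ± 0.35 (SE), missed the threshold of edgeR's quasi-likelihood test (unadjusted p = 0.0643, adjusted p = 0.538), and it ranged from -1.17 without CD73 KO replicate 2 to -0.45 without WT replicate 2. Per length, Gzmb exceeded Prf1 47.9-, 26.1- and 47.7-fold in the CD73 KO libraries and 47.8-, 42.1- and 36.6-fold in the WT libraries. That ratio averaged 40.6 ± 12.5 in CD73 KO and 42.2 ± 5.59 in WT (SD, n = 3 each), a difference smaller than either SD.

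**Figure D2:**
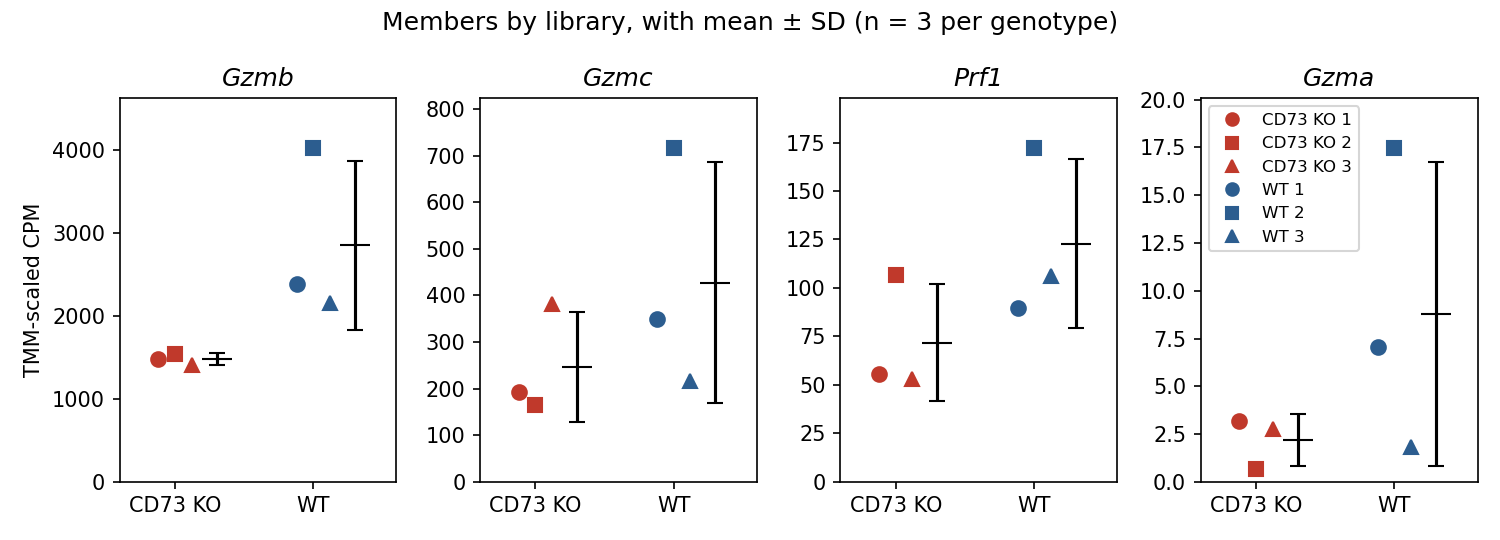
TMM-scaled CPM of Gzmb, Gzmc, Prf1 and Gzma from 0, with CD73 KO left of WT, a mark per library and the mean ± SD beside it. Only in the Gzmb panel do the 3 CD73 KO marks, at 1410 to 1548 CPM, lie wholly below the WT marks.

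Gzmc (ENSMUSG00000079186, chromosome 14, 56231441 to 56234656, minus strand) encodes granzyme C, which can kill target cells by damaging mitochondria. It was the second granzyme by level, with 3615, 2493 and 3960 counts in CD73 KO and 4496, 6725 and 1522 in WT. In CPM these are 192, 165 and 381 in CD73 KO and 350, 716 and 217 in WT. The 2 lowest libraries were of CD73 KO and the highest was WT replicate 2, but the genotypes overlapped, with CD73 KO replicate 3 above WT replicates 1 and 3. With a log2 fold change of -0.80 ± 0.53 (SE), Gzmc missed the threshold (edgeR adjusted p = 0.669), and it was -0.21 without WT replicate 2. Leaving out CD73 KO replicate 3 gave -1.26.

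Gzmc and Gzmb did not keep a fixed ratio. Per length, Gzmb exceeded Gzmc 4.80-, 5.85- and 2.30-fold in the CD73 KO libraries and 4.25-, 3.50- and 6.21-fold in the WT libraries. CD73 KO replicate 3 was lowest in this ratio, although its Gzmb was close to that of the other CD73 KO libraries. Of the summed granzyme level per length, Gzmb made up 78.9% ± 8.42 in CD73 KO and 80.9% ± 4.77 in WT (SD, n = 3 each), and Gzmc 20.6% ± 8.34 in CD73 KO and 18.2% ± 4.05 in WT. The genotypes differed in these shares by less than the spread of the libraries. The 7 other granzymes together took 0.857%, 0.160% and 0.532% in CD73 KO and 0.682%, 1.79% and 0.288% in WT. The sum itself was 1258, 1264 and 1416 CPM per kb in CD73 KO and 2066, 3671 and 1752 CPM per kb in WT.

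**Figure D3:**
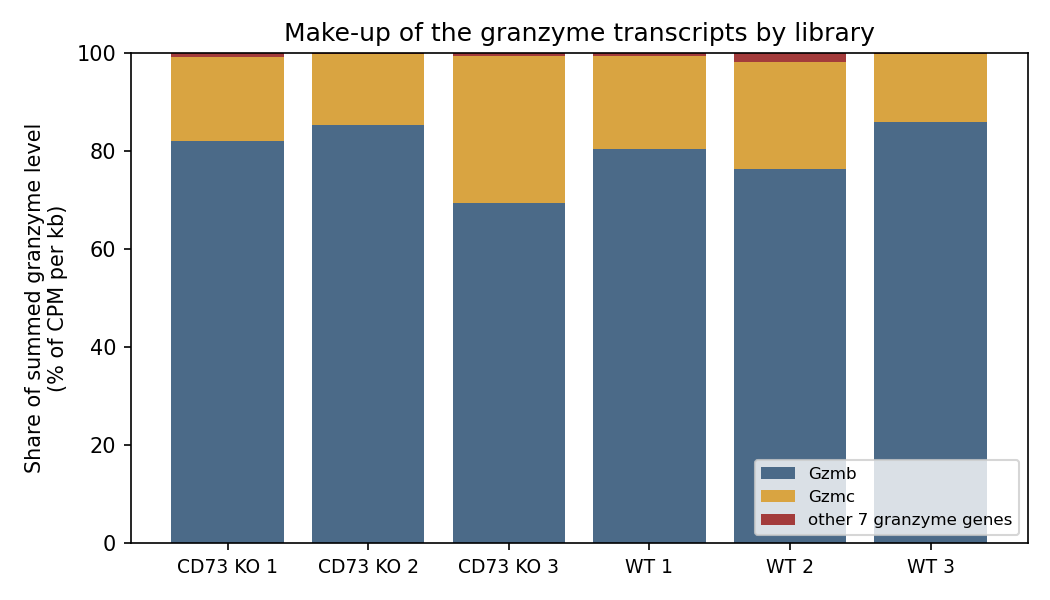
Share of each library's summed granzyme level (percent of CPM per kb of exon) taken by Gzmb, Gzmc and the other 7 granzyme genes, CD73 KO libraries on the left. Gzmb takes 69.4% in CD73 KO replicate 3 and 76.4% to 85.9% in the other 5 libraries.

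The remaining relatives of granzyme B lie beside Gzmb and Gzmc in a stretch of 145 kb (chromosome 14, 56117626 to 56262260) that holds 7 granzyme genes on the same strand. They were sparse and varied widely between libraries of the same genotype. Gzmd (chromosome 14, 56129556 to 56132608) had 46, 1 and 8 counts in CD73 KO and 37, 211 and 3 in WT. Gzme (chromosome 14, 56117626 to 56120625) had 42, 4 and 8 counts in CD73 KO and 18, 133 and 2 in WT. Both were highest in WT replicate 2 and next highest in CD73 KO replicate 1 or WT replicate 1, so that the genotypes overlapped.

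Gzmg (chromosome 14, 56156582 to 56159579) was seen with 3, 0 and 0 counts in CD73 KO and 3, 46 and 0 in WT. It was too low to be tested, and the exact 95% Poisson intervals of the libraries at 0 reach 0.244 and 0.355 CPM in CD73 KO replicates 2 and 3 and 0.525 CPM in WT replicate 3. WT replicate 2, at 4.90 CPM (exact 95% Poisson interval 3.59 to 6.53, counting error only), stood apart from the other 5 libraries. Gzmf (chromosome 14, 56205263 to 56211417) had 8, 4 and 16 counts in CD73 KO and 17, 20 and 2 in WT. Its highest CD73 KO library was replicate 3, which was also the highest CD73 KO library for Gzmc.

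None of the 3 tested genes among these passed edgeR's test. The log2 fold changes were -2.88 ± 1.45 for Gzmd, -2.20 ± 1.34 for Gzme and -0.94 ± 0.72 for Gzmf (SE, edgeR adjusted p = 0.583, 0.646 and 0.693). Without WT replicate 2 they were -0.65, 0.28 and -0.40, so that Gzme turned its sign. Other libraries moved them too, since Gzmd was -4.54 and Gzme -3.44 without CD73 KO replicate 1. Gzmf ran from -1.86 when CD73 KO replicate 3 was left out to -0.40. Gzmd and Gzme passed the filter on low counts largely through the libraries where they were high. In these fits the biological coefficient of variation of Gzmd was 1.19 where the trend over genes of like level was 0.240. Across the 8 tested members the coefficient was 1.30 to 4.95 times the trend.

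Close similarity limits how well the sparse copies can be told apart. The transcripts of Gzmd, Gzme and Gzmg were 90.5% to 94.8% identical, and 19.8% to 21.9% of their 50-base words also occurred in a transcript of another gene, all of them granzymes of the cluster. At 100 bases that share was at most 0.247%. Their separate levels are therefore uncertain, and their sum was 4.84, 0.330 and 1.54 CPM in CD73 KO, against 4.51, 41.5 and 0.712 CPM in WT. Gzmc shared 4.14% of its 50-base words with them and Gzmb none. Exons of Gm4022 lie over Gzmf on the other strand, and without a stated strand setting their reads cannot be told apart. Gzmn, the remaining granzyme gene of the stretch, was at 0 counts throughout, with 95% Poisson intervals that reach 0.196 to 0.355 CPM in CD73 KO, against 0.287 to 0.525 CPM in WT. Of 8 other protease genes of the wider cluster, Mcpt8, Ctsg and Cma1 had any counts, at most 13, 3 and 1, each highest in WT replicate 2.

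**Figure D4:**
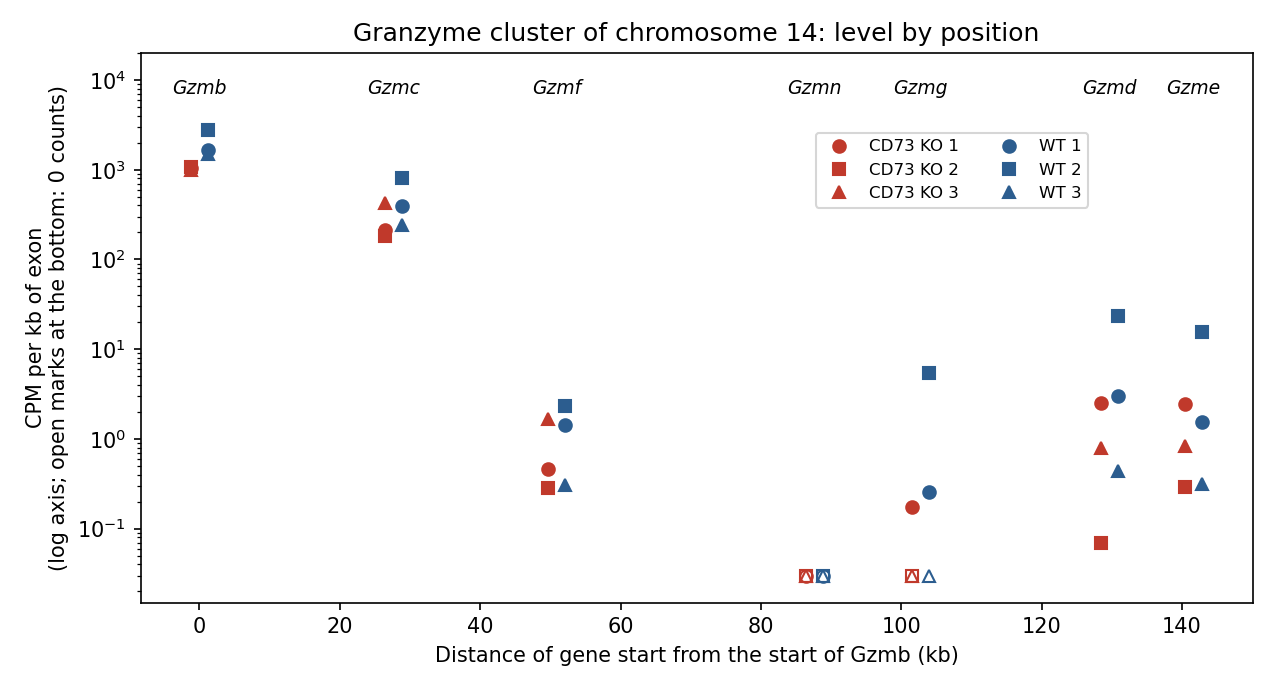
CPM per kb of exon (log axis, open marks for 0 counts) of the 7 granzyme genes of chromosome 14 against the distance of each start from that of Gzmb in kb, with CD73 KO marks left of WT marks. The 2 genes at the Gzmb end, Gzmb and Gzmc, lie above 184 CPM per kb in every library and the other 5 below 23.4.

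Granzymes that cut other substrates were scarce. Gzma (ENSMUSG00000023132, chromosome 13, 113093825 to 113100981, minus strand), a tryptase that with granzyme B is the classic product of killer cells, had 60, 10 and 29 counts in CD73 KO and 91, 164 and 13 in WT. These are 3.19, 0.660 and 2.79 CPM in CD73 KO, against 7.08, 17.5 and 1.85 CPM in WT. WT replicates 1 and 2 were above all CD73 KO libraries, but WT replicate 3 lay below CD73 KO replicates 1 and 3. The log2 fold change was -2.0 ± 0.85 (SE, edgeR adjusted p = 0.520), and -1.07 without WT replicate 2. Per length, Gzmb exceeded Gzma by far in every library, at 982 to 1078 against 0.656 to 3.17 CPM per kb in CD73 KO and at 1504 to 2804 against 1.84 to 17.4 CPM per kb in WT.

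Gzmm (ENSMUSG00000054206, chromosome 10, 79689020 to 79695261, plus strand) had 53, 15 and 21 counts in CD73 KO and 15, 24 and 20 in WT. The groups overlapped, at 0.990 to 2.82 CPM in CD73 KO, against 1.17 to 2.85 CPM in WT, and the log2 fold change was -0.11 ± 0.45 (SE, edgeR adjusted p = 0.957). Gzmk (ENSMUSG00000042385, chromosome 13, 113171608 to 113225908, minus strand), a granzyme that marks memory-like and some exhausted CD8 T cells, had 2, 1 and 1 counts in CD73 KO and 1, 1 and 2 in WT. It stayed under the floor of 3 counts in every library and was not detected at this depth. The 95% Poisson intervals of its libraries reach up to 0.536 CPM in CD73 KO, against 1.03 CPM in WT.

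Ordered by level per length, every library had Gzmb above Gzmc, Gzmc above Prf1, and Prf1 above the other 7 genes. Prf1 was at 21.6, 41.3 and 20.6 CPM per kb in CD73 KO and at 34.8, 66.6 and 41.1 CPM per kb in WT. Below it the order shifted between libraries. Gzma, Gzmd, Gzme, Gzmf and Gzmm averaged 0.809 to 2.20 CPM per kb in CD73 KO and 1.36 to 8.91 in WT, with SDs as large as these gaps, and so cannot be ordered. Gzmg and Gzmk were lowest by mean in CD73 KO, at 0.0585 and 0.0645 CPM per kb. In WT Gzmg averaged 1.88 CPM per kb, nearly all from WT replicate 2, and Gzmk 0.113.

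**Figure D5:**
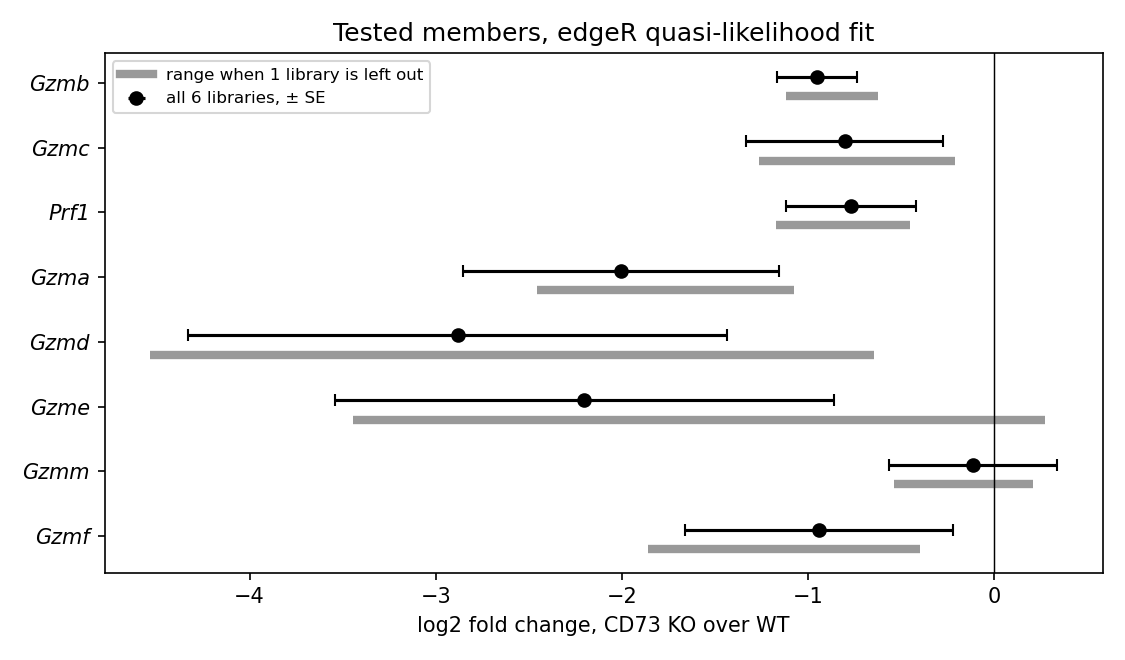
Log2 fold change (CD73 KO over WT) of the 8 tested members, with points and SE bars for all 6 libraries and grey bars for the range over the 6 fits that leave out a library. All points lie below 0, and the grey bars of Gzme and Gzmm cross it.

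Genes that mature, store and release the killing proteins were split between the directions. By edgeR's test 0 of 16 tested genes of granule maturation and exocytosis changed, with 8 higher and 8 lower in CD73 KO and a median log2 fold change of -0.01 (0.01 over all tested genes). At an unadjusted p under 0.05 there was 1 gene of the 16, Calr, where 9.64% of all tested genes passed. DESeq2 and limma-voom called 0 of the 16, with 0.786% and 0.049% of all genes called. Calr, which encodes the calcium-binding chaperone calreticulin, was at 836 ± 62.1 CPM in CD73 KO, against 993 ± 64.3 CPM in WT (SD, n = 3 each), a log2 fold change of -0.25 ± 0.10 (SE, edgeR adjusted p = 0.496) and of -0.21 without WT replicate 2. Igf2r, a receptor that sorts granzymes to the granule, had -0.23 ± 0.14, while Ctsw, a lysosomal protease of killer cells, and Stx11, a fusion protein of granule release, had 0.28 ± 0.17 and 0.17 ± 0.17 (SE, edgeR adjusted p = 0.616, 0.613 and 0.770). Without WT replicate 2 these were -0.21 for Igf2r, 0.25 for Ctsw and 0.07 for Stx11. Over the 6 fits that left out a library, Igf2r ran from -0.37 (without WT replicate 3) to -0.10 (without WT replicate 1). Ctsw ran from 0.06 (without CD73 KO replicate 3) to 0.44 (without CD73 KO replicate 2), and Stx11 from 0.07 (without WT replicate 1 or 2) to 0.38 (without WT replicate 3).

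Of 5 serpins listed as protective for killer cells, 4 were lower and 1, Serpina3g, higher in CD73 KO. The log2 fold change was below 0 for 47.7% of all tested genes. In edgeR's test 0 of the 5 passed (0.0572% of all tested genes) and 0 had an unadjusted p under 0.05 (9.64%). DESeq2 and limma-voom called 0 as well, with 0.786% and 0.049% of all genes called. Serpinb9, the mouse inhibitor of granzyme B, had 50.0, 56.2 and 44.3 CPM in CD73 KO, against 56.8, 97.0 and 45.3 CPM in WT, again highest in WT replicate 2. Its log2 fold change was -0.41 ± 0.26 (SE, edgeR adjusted p = 0.644), but -0.036 without WT replicate 2 and -0.61 without WT replicate 3. Serpinb6a and Serpina3g had -0.30 ± 0.15 and 0.39 ± 0.25 (SE, edgeR adjusted p = 0.543 and 0.647). Without WT replicate 2 they were -0.13 and 0.29, and Serpina3g ran from 0.15 without CD73 KO replicate 3 to 0.63 without WT replicate 1.

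The list of 16 effector transcription factors also held factors of other states, such as Tcf7 and Bach2. Of the 16, edgeR and limma-voom called 0 and DESeq2 1, Tcf7, which also was the gene with an unadjusted p under 0.05 in edgeR. Tcf7, Bach2 and Notch1, 3 of the 16, were higher in CD73 KO without overlap. Over all genes DESeq2 called 0.786%, and 9.64% had an unadjusted p under 0.05 in edgeR. Tcf7 encodes TCF-1, a factor of naive and stem-like cells. It was at 375, 325 and 280 CPM in CD73 KO, against 211, 133 and 229 CPM in WT, lowest in WT replicate 2 and without overlap, as were 15.2% of all tested genes (log2 fold change 0.77 ± 0.20, SE, edgeR adjusted p = 0.319; DESeq2 adjusted p = 0.0120). Without WT replicate 2 it was 0.57. Bach2, a repressor of effector genes, had 0.30 ± 0.14 (SE, edgeR adjusted p = 0.520), with 0.32 without WT replicate 2 and 0.16 without WT replicate 3.

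Eomes, a T-box factor tied to cytotoxic and memory genes, varied widely between libraries of the same genotype. It was at 15.1, 1.39 and 6.74 CPM in CD73 KO, against 30.1, 34.5 and 2.56 CPM in WT. CD73 KO replicate 2 and WT replicate 3 were thus lowest in their genotypes, as they were for Gzma, Gzmc, Gzmd, Gzme and Gzmf. The leading members differed, since CD73 KO replicate 2 was the highest CD73 KO library for Gzmb and Prf1. Within WT, Gzmb was lowest in replicate 3 but Prf1 in replicate 1. The log2 fold change of Eomes was -1.53 ± 1.04 (SE, edgeR adjusted p = 0.675), with -1.11 without WT replicate 2. Leaving out CD73 KO replicate 1 gave -2.57. Id2, a partner of effector programmes, had -0.24 ± 0.27 (SE, edgeR adjusted p = 0.793), with -0.16 without WT replicate 2. Over the fits that left out a library it ran from -0.55 without CD73 KO replicate 1 to -0.027 without CD73 KO replicate 2.

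Of 10 other killing and effector genes, edgeR and limma-voom called 0 and DESeq2 1, Lta, with 3 at an unadjusted p under 0.05 in edgeR. Over all genes those shares were 0.786% for DESeq2 and 9.64% for the unadjusted p. Lta, the cytokine lymphotoxin alpha, was at 17.4, 13.6 and 20.2 CPM in CD73 KO, against 27.5, 29.4 and 28.3 CPM in WT (log2 fold change -0.74 ± 0.17, SE, edgeR adjusted p = 0.252; DESeq2 adjusted p = 0.0189), and the log2 fold change was -0.71 without WT replicate 2. Ifng was lower in all CD73 KO libraries, at 47.7 to 51.0 CPM against 56.0 to 75.3 CPM in WT (log2 fold change -0.37, edgeR adjusted p = 0.415; -0.25 without WT replicate 2). Tnf was higher in all CD73 KO libraries, at 22.0 to 27.8 CPM against 12.8 to 21.4 CPM in WT (log2 fold change 0.48, edgeR adjusted p = 0.492; 0.29 without WT replicate 2). Lta, Ifng and Tnf thus showed no overlap between the genotypes, a pattern of 15.2% of all tested genes, 7.6% on the lower side. Ltb had a log2 fold change of 0.23 ± 0.15 (SE, edgeR adjusted p = 0.631), 0.26 without WT replicate 2, and it ran from 0.14 without CD73 KO replicate 3 to 0.40 without CD73 KO replicate 2.

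WT replicate 2, which held the most Gzmd, Gzme and Gzmg, also held the most of some NK cell markers. The full list was highest in CD73 KO replicate 1. The 6 NK cell markers other than Klrk1, Klrd1 and Nkg7, which activated CD8 T cells express as well, summed to 6.33, 2.51 and 4.43 CPM in CD73 KO, against 10.5, 16.8 and 2.28 CPM in WT. Of these 6, 3 or 4 reached 3 counts in each CD73 KO library, and 3, 6 and 2 did in the WT libraries. The order of libraries differed from that of the granzymes. Gzmd, Gzme and Gzmg summed to 4.84 CPM in CD73 KO replicate 1, against 4.51 CPM in WT replicate 1. The full list of 9 NK cell markers summed to 1449 to 1531 CPM in CD73 KO, against 1251 to 1360 CPM in WT. Klrk1 was at 475 to 570 CPM in CD73 KO, against 415 to 435 CPM in WT, and Klrd1 at 415 to 473 against 371 to 395 CPM. Ncr1, a defining gene of NK cells, had 5, 1 and 2 counts in CD73 KO and 2, 8 and 1 in WT, near or under the floor. Fcer1g, a signalling adaptor, had 32, 9 and 24 counts in CD73 KO and 86, 72 and 6 in WT. It made up 6.69 of the 10.5 CPM in WT replicate 1 and 7.67 of the 16.8 CPM in WT replicate 2. The part of such cells in the granzyme levels was not tested.

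Mast cells and basophils are another source of proteases from this cluster. Their 8 markers summed to 24.5 to 35.4 CPM in CD73 KO, against 16.8 to 25.2 CPM in WT. Kit alone, a receptor gene, was at 24.0, 33.1 and 34.8 CPM in CD73 KO, against 24.1, 13.3 and 19.1 CPM in WT. Of the 8 markers, 2, 1 and 2 reached 3 counts in the CD73 KO libraries, against 2, 4 and 1 in the WT libraries. Cpa3, a mast cell carboxypeptidase, had 8, 0 and 6 counts in CD73 KO, against 12, 13 and 0 in WT. Mcpt8, a basophil protease, had 1 count in each CD73 KO library, against 2, 13 and 0 in WT. Ms4a2, a chain of the IgE receptor, had 0 counts in CD73 KO, against 0, 4 and 0 in WT. By CPM these 3 genes were thus highest in WT replicate 2, as were most granzymes. Mcpt4 and Tpsb2 had 0 counts in all 6 libraries. The part of such cells in the granzyme levels was not tested.

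The tested genes whose profile over the 6 libraries was most like that of Gzmb, by the root mean square difference of centred log2 CPM, were Pdia5 (0.16), Dlg2 (0.17), Zfp385a (0.17), Mgat3 (0.19) and Kcnk10 (0.20), where the median over all tested genes was 0.56. For Prf1 they were Gldc (0.14), Kcnk10 (0.15), Procr (0.17), Tmem144 (0.23) and Smoc1 (0.24), with a median of 0.62. Kcnk10, a potassium channel gene, was on both lists and was at 2.93, 4.23 and 2.60 CPM in CD73 KO, against 4.82, 7.99 and 5.41 CPM in WT. Several of these genes were at about 1 CPM, where counting error is large, and 6 libraries allow many genes to look alike.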

How the data were processed

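The authors deposited 1 table of raw read counts, with a row per Ensembl gene and a column for each of 6 libraries. The submitters' processing notes name fastp, HISAT2, featureCounts and mm10. For tool versions, annotation release and strand setting, no statement was found in the labels or headers used. A symbol was found for 49326 of 49671 identifiers. The filterByExpr function (edgeR 4.0.16; at least 10 counts, total at least 15) left 12242 genes. Genotypes were compared by edgeR's quasi-likelihood test with TMM factors, robust dispersions and the legacy fit in R 4.3.3, with Benjamini-Hochberg adjustment over all tested genes and a threshold of 0.05. The fit was tested on simulated data. For edgeR, the SE of a log2 fold change was its absolute value divided by the square root of the test's F statistic. It restates that test and is not a separate measure of spread. Alternatives were RLE factors, library size alone, no filter, 1 CPM in 3 libraries, non-robust dispersions, the edgeR 4 fit, a replicate block, each library left out, DESeq2 1.42.0 and limma-voom (limma 3.58.1). DESeq2 was given the counts before the filter, and limma-voom those after it. Exon lengths and positions come from GENCODE M21 (GRCm38, the assembly of mm10). Log2 profiles used a prior count of 2. Promoter windows (RefSeq, GRCm38.p6; 250 bases before to 50 after each start) were found for all 10 members, and sequences were aligned with Biopython 1.88. Intervals are exact 95% Poisson intervals and, like the floor of 3 counts, cover counting error only. The members, gene lists and tests were chosen with earlier results of these data known. Named genes were the 10 members, Nt5e, Gzmn, list genes past the threshold or else the 2 of smallest p in each direction per list, and the 5 genes most like Gzmb and Prf1. Other list and marker genes were named after their values were seen. Vamp7 of the exocytosis list was not analysed here.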

Additional observations from a re-analysis of the deposited data

How the results depend on the processing

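Of 360 log2 fold changes recomputed for 24 genes under 15 alternatives, 350 kept their direction and their side of the threshold, 4 turned and 6 passed the threshold (Gzmb, Tcf7 and Lta, each without a filter and with DESeq2). The count of changed members was 0 in edgeR with all 6 libraries, 1 without a filter and 1 with DESeq2, Gzmb both times, and 0 in the fits that left out a library. The count of changed genes, 7, was 298 without a filter and 98 with DESeq2, and 4 to 8 when single libraries were left out (4 without CD73 KO replicate 2 or WT replicate 2). DESeq2 also ran without the filter, and the cause was not tested. When single libraries were left out, Gzme ran from -3.44 to 0.28 and Gzmm from -0.54 to 0.21. Levels and shares moved by less than 1 SD under other scalings and lengths. With the replicate block, 5 genes and 0 members passed (Prf1: adjusted p = 0.0852 in edgeR). The numbers were not taken to pair the libraries, since deviations of same-numbered libraries correlated at 0.150, -0.170 and 0.0137 over 12242 genes, and not every library correlated best with its own number. Depth limits Gzmg and Gzmk most, which were at 0 to 3 counts in at least 5 libraries each.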
